A study of Mus musculus with 9 samples.

Results

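The miR-29 family was followed in mouse liver during thioacetamide (TAA) injury and after its withdrawal. Its members were chosen by name, as every row of the miRNA table that starts with mmu-miR-29a-, mmu-miR-29b- or mmu-miR-29c-, which gave 7 of the 1140 rows. They comprised 3 rows of 3p arms (29a-3p, 29b-3p and 29c-3p) and 4 rows of 5p arms (29a-5p, 29b-1-5p, 29b-2-5p and 29c-5p).

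Small RNA of whole liver was sequenced from 9 male C57BL/6 mice that were 8 weeks old when treatment began, each library coming from a different mouse. The control group (n = 3) received intraperitoneal saline for 8 weeks, the TAA group (n = 3) received intraperitoneal TAA for 8 weeks, and the recovery group (n = 3) received TAA for 8 weeks followed by 8 weeks without it. TAA is a liver toxicant whose repeated injection produces fibrosis. The recovery mice were therefore killed 8 weeks later than the mice of both other groups, and withdrawal cannot be told apart from the added age. In whole liver, fewer cells of a type and less RNA per cell cannot be told apart either.

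miRNAs of the miR-29 family pair with the 3′ untranslated regions of many collagen and other extracellular matrix mRNAs and repress them, and the family is known in the liver as antifibrotic and as low in activated hepatic stellate cells. The 3p arm of each hairpin is the guide strand that is usually loaded into the silencing complex, and the 5p arm is the passenger strand. A pair of hairpin clusters encodes the family in the mouse, one with 29a and 29b-1 and the other with 29b-2 and 29c.

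The mature sequences show why the 3p rows are grouped, and how little separates them. RefSeq sequences of build GRCm38.p6 matched 7 of the 7 rows. The 3p arms are printed 5′ to 3′ with the seed, bases 2 to 8, in capitals.
mmu-miR-29a-3p: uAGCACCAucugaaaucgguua
mmu-miR-29b-3p: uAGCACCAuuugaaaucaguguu
mmu-miR-29c-3p: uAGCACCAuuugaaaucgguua
All 3 share the seed AGCACCA, and no other of the 1679 mouse mature sequences in the RefSeq-derived reference held it. Counting positions from the 5′ end and naming the base of the first miRNA first, 29a-3p and 29c-3p differed at 1 of 22 positions, C10U. The sequence of 29a-3p differed from that of 29b-3p at 4 positions (C10U, G18A, U21G and A22U), and 29b-3p differed from 29c-3p at 3 (A18G, G21U and U22A). How many mismatches the authors allowed when assigning reads was not given in the sources used here, and whether reads crossed between 29a-3p and 29c-3p was not tested.

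The 5p arms are shown because they, unlike 29b-3p, name the hairpin they came from. Their bases 2 to 8 are in capitals.
mmu-miR-29a-5p: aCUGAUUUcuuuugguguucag
mmu-miR-29b-1-5p: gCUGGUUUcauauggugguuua
mmu-miR-29b-2-5p: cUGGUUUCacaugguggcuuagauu
mmu-miR-29c-5p: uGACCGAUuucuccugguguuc
No seed was shared among these 4. The 29b-1-5p and 29b-2-5p arms differed at 2 of 21 aligned bases (U11C and U19C, numbered in 29b-1-5p) when shifted by 1 base. The 29b-3p sequence was identical from both of its hairpins, so its count cannot be divided between the clusters.

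In the GRCm38 annotation the 29a/29b-1 cluster lies on the minus strand of chromosome 6, with Mir29b-1 at chr6:31063023-31063093 and Mir29a at chr6:31062660-31062747, 275 bases apart. Mir29a overlapped no other annotated gene, and Mir29b-1 shared 2 bases with an exon of the long non-coding RNA Gm27019. The 29b-2/29c cluster lies on the plus strand of chromosome 1, with Mir29b-2 at chr1:195037040-195037120 and Mir29c at chr1:195037547-195037634, 426 bases apart. Both of its hairpins fell wholly inside an exon of the non-coding transcript A330023F24Rik on the same strand, and opposite an exonic untranslated region of Cd46 on the other strand. The guide arms lie at chr6:31062673-31062694 for 29a-3p, chr1:195037600-195037621 for 29c-3p, and chr6:31063025-31063047 and chr1:195037091-195037113 for 29b-3p.

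**Figure D1:**
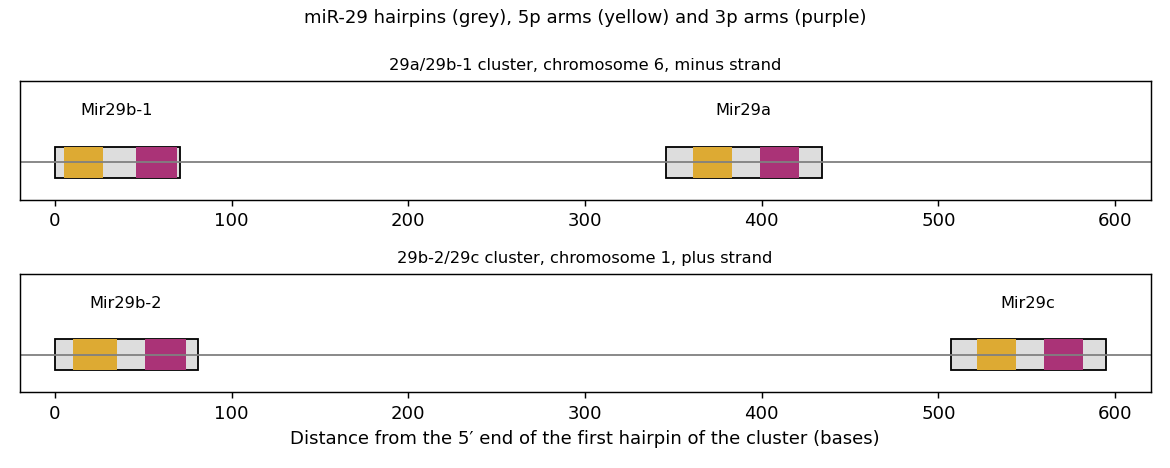
Map of both miR-29 clusters drawn to scale in the direction of transcription, with the distance in bases from the 5′ end of the first hairpin on the x axis. Grey boxes are hairpins, yellow boxes 5p arms and purple boxes 3p arms, and the hairpins are 275 bases apart in the upper cluster and 426 bases apart in the lower.

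Library totals ranged from 9949711 to 12983378 counts among control livers, from 9071847 to 11320110 among TAA livers and from 12211930 to 12462838 among recovery livers. The composition of the libraries differed between groups, so the choice of scale matters for every member. Levels below are CPM (counts divided by the library size and multiplied by a constant) after scaling by the trimmed mean of M values (TMM-CPM), which centres the change of a typical row near 0, or deposited TPM, which equals the share of the library total without a correction for length. TMM factors were 0.7385 to 0.7921 in control, 1.433 to 1.633 in TAA and 0.7661 to 0.8873 in recovery libraries. Scaling by library totals in place of TMM raised the median log2 fold change of all rows tested by 1.12 in TAA vs control. The same step changed that median by -0.864 for recovery vs TAA. It changed it by 0.183 for recovery vs control.

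The liver identity of the samples was checked with hepatocyte miRNAs. The summed level of miR-122-5p, miR-122-3p, miR-192-5p and miR-194-5p was 362100 to 377100 TMM-CPM in control, 107500 to 114000 in TAA and 273300 to 402000 in recovery livers. In deposited TPM the same sum was 273400 to 298700, 163300 to 176000 and 242500 to 307900. No marker row was at 0 in all libraries of a group.

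The 29a-3p guide was by far the most abundant member in each of the 9 livers. Its counts were 12263, 8845 and 9154 in the control livers, 10154, 8703 and 10641 in the TAA livers, and 13091, 12446 and 11710 in the recovery livers. Among reads of the 3 guide arms it made up 94.58% ± 0.516 (SD, n = 3) in control, 96.52% ± 0.33 in TAA and 95.29% ± 0.567 in recovery livers. The remaining guide reads were divided between 29b-3p and 29c-3p. How evenly library preparation captured each sequence was not measured here, so differences in level between members are differences in reads.

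In control livers the members fell into 3 ranges of TMM-CPM. The 29a-3p level was 1193 ± 25.7 (SD, n = 3). The next 3 could not be told apart by their spread, at 35.57 ± 2.64 for 29c-3p, 33.87 ± 8.29 for 29c-5p and 32.82 ± 4.17 for 29b-3p. The lowest were 29b-2-5p at 5.244 ± 1.67, 29a-5p at 2.319 ± 1.29 and 29b-1-5p at 1.405 ± 0.214, with overlapping values for each neighbouring pair. The order of the middle range differed in the TAA livers, where 29b-3p was at 14.85 ± 2.65, 29c-5p at 11.9 ± 2.17 and 29c-3p at 8.296 ± 1.08. There 29b-3p and 29c-5p overlapped, while each TAA liver had less 29c-3p than any TAA liver had 29c-5p. The recovery livers again had overlapping levels of 29c-3p (32.42 ± 4.67), 29c-5p (31.35 ± 7.22) and 29b-3p (26.67 ± 3.09).

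TAA vs control asks how the family differed in fibrotic liver. The guide 29c-3p fell most, and it was the 1 member called lower on the TMM scale, by library totals and relative to 29a-3p. Its counts were 397, 256 and 258 in control and 122, 116 and 142 in TAA livers. These corresponded to 38.6, 33.78 and 34.34 TMM-CPM in control and 7.524, 7.83 and 9.535 in TAA livers. The groups did not overlap. The groups also stood apart in deposited TPM, at 30.58, 24.94 and 25.93 in control against 10.78, 12.79 and 15.49 in TAA livers. The log2 fold change on the TMM scale was -2.18 (SE 0.19, FDR 0.000114), by the edgeR quasi-likelihood test with Benjamini-Hochberg adjustment, which gave every FDR below. It was the 4th lowest of 420 rows tested.

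The guide 29a-3p, from the other cluster, differed less and in a direction that depended on the scale. It measured 1192, 1167 and 1218 TMM-CPM in control and 626.2, 587.5 and 714.5 in TAA livers, without overlap. On this scale its log2 fold change was -0.98 (SE 0.12, FDR 0.00061), just short of the 2-fold change that a call required. It passed that limit with DESeq2 (-1.03, adjusted p 2.08e-11), with DESeq2 size factors in edgeR (-1.03) and without TAA replicate 3 (-1.05). In deposited TPM it measured 944.5, 861.7 and 920 in control and 897, 959.3 and 1161 in TAA livers. Those groups overlapped, and the log2 fold change by library totals was 0.15 (SE 0.13, FDR 0.35).

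The shared guide 29b-3p was between them on the TMM scale. Its counts of 387, 231 and 228 in control and 286, 183 and 217 in TAA livers gave 37.63, 30.48 and 30.35 against 17.64, 12.35 and 14.57 TMM-CPM. The groups did not overlap on that scale, and the log2 fold change was -1.24 (SE 0.19, FDR 0.0012). By library totals it was -0.12 (SE 0.19, FDR 0.58).

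Both passenger arms of the 29b-2/29c cluster fell on the TMM scale. The 29c-5p arm measured 25.19, 41.69 and 34.74 TMM-CPM in control and 12.21, 9.585 and 13.9 in TAA livers, a log2 fold change of -1.59 (SE 0.24, FDR 0.0012). The 29b-2-5p arm, read from only 23 to 50 counts a library in these groups, measured 3.403, 5.673 and 6.655 against 1.419, 2.498 and 1.813 TMM-CPM, a log2 fold change of -1.52 (SE 0.37, FDR 0.0097). Neither pair of groups overlapped. By library totals the log2 fold changes were -0.46 (FDR 0.10) for 29c-5p and -0.40 (FDR 0.36) for 29b-2-5p.

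The passenger arms of the 29a/29b-1 cluster were near the limit of detection. Counts of 29a-5p were 21, 9 and 28 in control and 32, 22 and 22 in TAA livers, and the exact 95% Poisson interval of the lowest, 9, was 4.12 to 17.1. Its groups overlapped, and the log2 fold change was -0.57 (SE 0.42, FDR 0.27). That value was -0.10 without control replicate 3 and -0.88 without control replicate 2. Counts of 29b-1-5p were 12, 12 and 11 in control and 10, 5 and 5 in TAA livers, too few to pass the filter on low counts for this comparison. It passed the filter with all 9 libraries in 1 model, where the filter and this comparison are not independent. It was called there, at a log2 fold change of -1.66 (SE 0.41, FDR 0.0062), and with no filter, at -1.77 (SE 0.68, FDR 0.039).

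On the TMM scale 4 of the 6 members tested were called lower in TAA livers (29c-3p, 29c-5p, 29b-2-5p and 29b-3p, at an FDR below 0.05 and a 2-fold change), beside 16.7% of all 420 rows tested. The median log2 fold change of the members tested was -1.38, beside 0.113 for all rows. DESeq2 called 5. By library totals 29c-3p was the 1 member called lower, with a log2 fold change of -1.06 (SE 0.20, FDR 0.0023), and calls in that direction covered 0.952% of rows tested. The 4 rows so called were 29c-3p, miR-592-5p, miR-7219-3p and miR-871-3p. The direction of 29a-3p and 29a-5p differed between the scales, and that of 29c-3p, 29b-3p, 29c-5p and 29b-2-5p was the same.

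**Figure D2:**
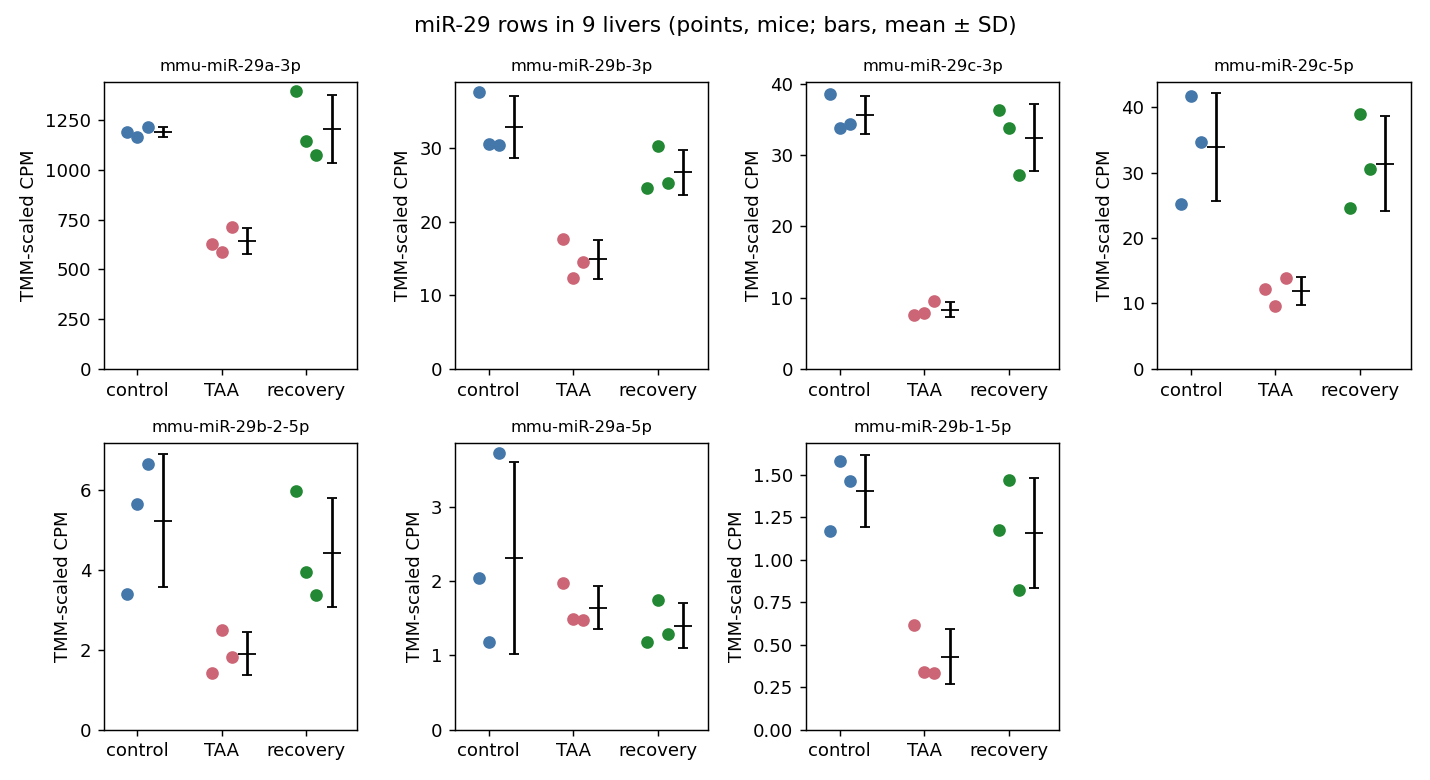
TMM-CPM (y axes, linear from 0) of each miR-29 row in the control, TAA and recovery livers, with 1 point for each mouse and the mean ± SD of 3 mice beside it. On this scale each of the 3 TAA livers was below each control and recovery liver in 6 panels, and the groups overlapped for 29a-5p. In deposited TPM only 29c-3p was below both groups without overlap. How many of all rows were without overlap was not counted.

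Scaling was then removed from the comparison of the clusters by testing each row against 29a-3p of the same library. The guide 29c-3p amounted to 3.237, 2.894 and 2.818% of the 29a-3p count in control livers. The corresponding values were 1.201, 1.333 and 1.334% in TAA livers. The groups were far apart relative to their spread. Relative to 29a-3p the log2 fold change of 29c-3p was -1.21 (SE 0.17, FDR 0.00083), and it was the 1 member called of 5 tested. In this fit 1.43% of all 419 rows tested were called lower: 29c-3p, miR-137-3p, miR-1843a-3p, miR-592-5p, miR-7219-3p and miR-871-3p. The median log2 fold change of all rows was 1.11 relative to 29a-3p and 1.23 by library totals, so both fits had a similar centre. The ratio of 29c-3p to 29a-3p was thus lower in TAA livers by a test of the difference itself, on whichever scale 29a-3p is read.

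The other members did not separate from 29a-3p by the same criterion. The log2 fold change relative to 29a-3p was -0.62 for 29c-5p (SE 0.24, FDR 0.047), under the 2-fold change required. For 29b-2-5p it was -0.54 (SE 0.38, FDR 0.24), and for 29b-3p -0.25 (SE 0.21, FDR 0.31). For 29a-5p it was 0.42 (SE 0.43, FDR 0.40). The test did not cover 29b-1-5p, which the filter had left out. Without TAA replicate 1 it passed the filter through the control livers, where its counts were higher. The filter and the comparison are then not independent. In that fit 29b-1-5p was called as well, with a log2 fold change relative to 29a-3p of -1.15 (SE 0.43, FDR 0.046). The count of members called was then 2 in place of 1. Without control replicate 1, TAA replicate 2 or TAA replicate 3 the value for 29b-1-5p was -0.90, -0.68 and -0.56, and it was not called.

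**Figure D3:**
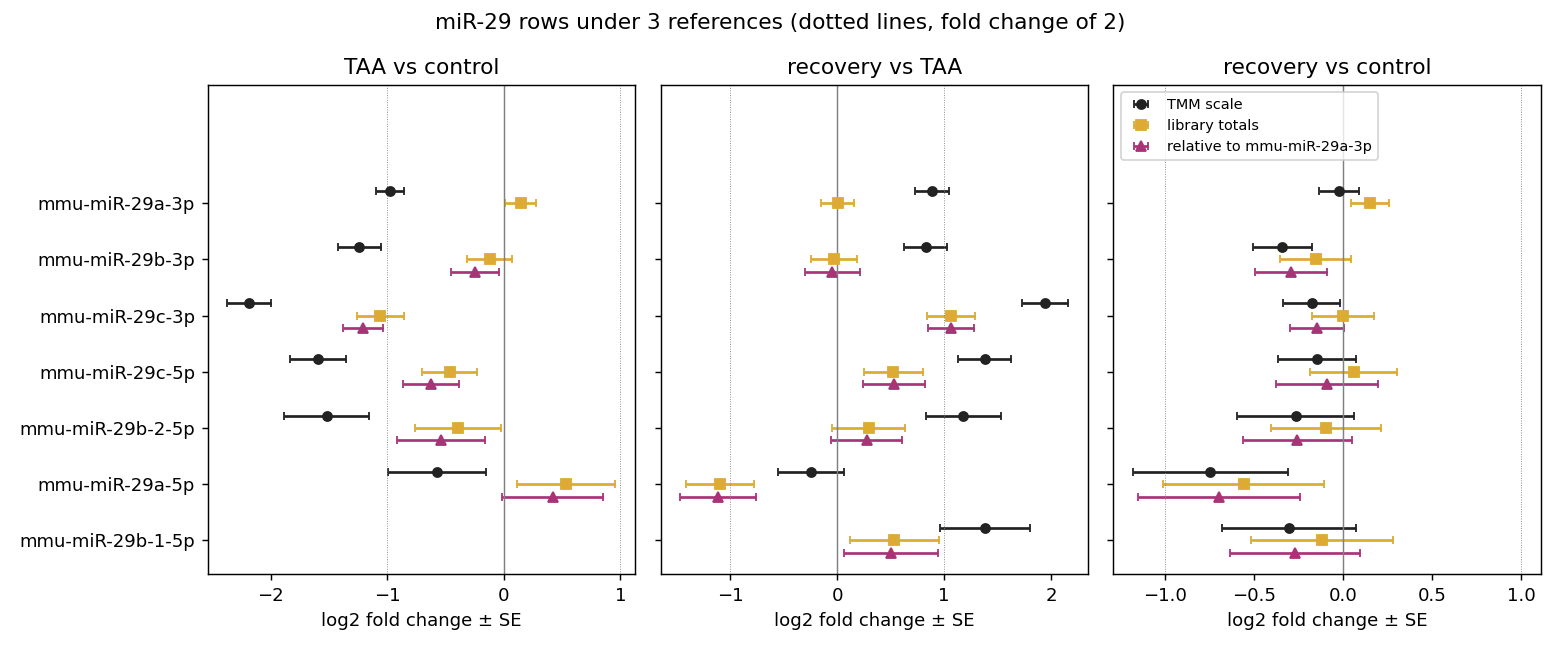
Log2 fold change ± SE (x axes) of each miR-29 row, with 1 panel for each pair of groups, on the TMM scale (circles), by library totals (squares) and relative to mmu-miR-29a-3p (triangles), with dotted lines at a 2-fold change. The value for 29c-3p lies beyond a 2-fold change with all 3 references in both comparisons that involve TAA, at -2.18, -1.06 and -1.21 and at 1.94, 1.06 and 1.06, whereas 29a-3p moves from -0.98 to 0.15 between scales in TAA vs control.

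Recovery vs TAA asks what changed after withdrawal. It uses the same TAA libraries as the comparison above, so its values are given beside those and not as a second line of evidence. Counts of 29c-3p in the recovery livers were 339, 368 and 297, against 122, 116 and 142 in the TAA livers. In TMM-CPM the recovery livers measured 36.24, 33.8 and 27.21. Each recovery liver was above each TAA liver on the TMM scale and in deposited TPM (27.76, 29.99 and 23.83). The log2 fold change was 1.94 (SE 0.22, FDR 0.00059) on the TMM scale and 1.06 (SE 0.22, FDR 0.0046) by library totals. It was the 2nd highest of 440 rows tested on both scales.

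The guides 29a-3p and 29b-3p were higher in recovery than in TAA livers on the TMM scale by less than 2-fold. The 29a-3p level was 1399, 1143 and 1073 TMM-CPM in recovery livers, a log2 fold change of 0.88 (SE 0.16, FDR 0.0040). The 29b-3p level was 24.58, 30.22 and 25.19 TMM-CPM, a log2 fold change of 0.83 (SE 0.20, FDR 0.014). By library totals those log2 fold changes were 0.0040 (SE 0.15, FDR 0.98) for 29a-3p and -0.03 (SE 0.22, FDR 0.91) for 29b-3p. Neither guide was called on either scale.

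The passenger arms differed among themselves. On the TMM scale 29c-5p rose with a log2 fold change of 1.38 (SE 0.25, FDR 0.0040), its recovery livers measuring 24.58, 38.95 and 30.51 TMM-CPM. Recovery livers had 56, 43 and 37 counts of 29b-2-5p and 11, 16 and 9 of 29b-1-5p. Their log2 fold changes were 1.18 (SE 0.35, FDR 0.032) and 1.38 (SE 0.42, FDR 0.034). The 29b-1-5p row, with 10, 5 and 5 counts in TAA livers, passed the filter through the recovery livers, and its call was lost with no filter (FDR 0.14) and with DESeq2 (adjusted p 0.052). The counts of 29a-5p went the other way, at 11, 19 and 14 in recovery against 32, 22 and 22 in TAA livers. Its TMM-CPM overlapped, with a log2 fold change of -0.24 (SE 0.31, FDR 0.57). In deposited TPM each recovery liver was below each TAA liver for 29a-5p, and by library totals it was called lower, with a log2 fold change of -1.09 (SE 0.32, FDR 0.018), in a comparison where 46.1% of rows tested were called lower.

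On the TMM scale 4 of 7 members were called higher in recovery than in TAA livers (29c-3p, 29c-5p, 29b-2-5p and 29b-1-5p), beside 10.2% of all 440 rows tested. The count includes 29b-1-5p, for which the filter and the comparison are not independent. The median log2 fold change was 1.18 for the members and -0.115 for all rows. The count was 2 without TAA replicate 3, without recovery replicate 1 or without recovery replicate 2, and in each case 29b-2-5p and 29b-1-5p lost their calls. DESeq2 called 3. By library totals 29c-3p was the 1 member called higher, beside 0.909% of rows tested, which were 29c-3p, miR-1843a-3p, miR-455-3p and miR-592-5p.

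**Figure D4:**
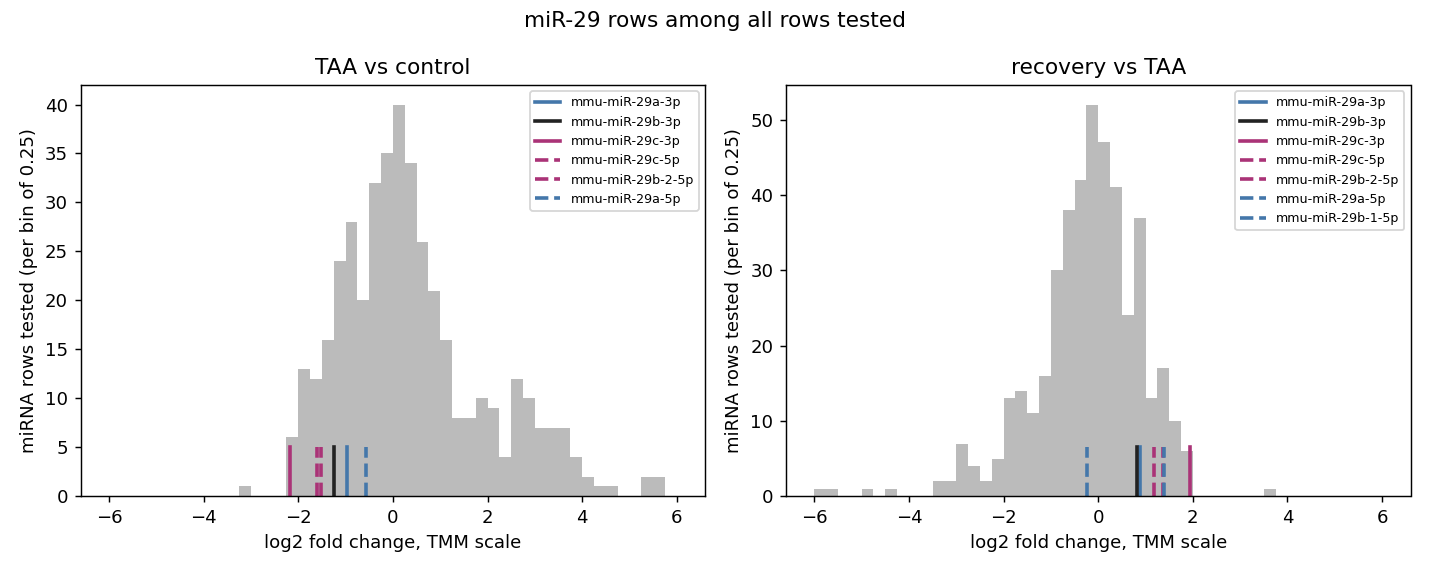
Number of miRNA rows tested (y axes) by log2 fold change on the TMM scale (x axes, bins of 0.25) in TAA vs control and recovery vs TAA, with coloured ticks for the miR-29 rows, solid for 3p and dashed for 5p arms. The tick for 29c-3p lies at the low edge of the main body of rows on the left (-2.18, 4th lowest of 420) and at its high edge on the right (1.94, 2nd highest of 440).

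Relative to 29a-3p, 29c-3p was higher in recovery than in TAA livers with a log2 fold change of 1.06 (SE 0.21, FDR 0.0046). As a share of the 29a-3p count it was 2.59, 2.957 and 2.536% in recovery livers, each above the 1.201 to 1.334% of the TAA livers. Calls in that direction covered 0.683% of 439 rows tested, namely 29c-3p, miR-455-3p and miR-592-5p. The median log2 fold change of all rows was -0.987 relative to 29a-3p and -0.978 by library totals. Without recovery replicate 2 the value for 29c-3p was 0.99 (FDR 0.022), under the 2-fold change. The 29a-5p arm was called lower relative to its own guide, with a log2 fold change of -1.11 (SE 0.35, FDR 0.027), among 46.0% of rows tested that were called lower. That call was lost without TAA replicate 1 or 2 and without recovery replicate 1 or 3. The other members were not called, with log2 fold changes of 0.53 for 29c-5p (FDR 0.14), 0.50 for 29b-1-5p (FDR 0.34), 0.28 for 29b-2-5p (FDR 0.50) and -0.04 for 29b-3p (FDR 0.90).

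Recovery vs control asks whether differences remained after withdrawal. No member was called of the 7 tested, and none had an unadjusted p below 0.05, beside 11.3% of all 391 rows tested that were called in either direction. DESeq2 also called 0. The log2 fold change was -0.18 for 29c-3p (SE 0.16, FDR 0.62), -0.02 for 29a-3p (SE 0.11, FDR 0.96) and -0.15 for 29c-5p (SE 0.22, FDR 0.80). The 29b-3p guide was the 1 member whose groups did not overlap, at 24.58 to 30.22 TMM-CPM in recovery and 30.35 to 37.63 in control livers. The gap was narrow, and how many of all rows were without overlap was not counted. The log2 fold change of 29b-3p was -0.34 (SE 0.17, FDR 0.26), and its groups overlapped in deposited TPM. The widest error was that of 29a-5p, at -0.74 (SE 0.44, FDR 0.38). Relative to 29a-3p, 0 of 6 members were called, beside 10.3% of 390 rows tested, and 29c-3p had a log2 fold change of -0.15 (SE 0.15, FDR 0.78).

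Within the guide pool the share of 29c-3p showed the same pattern with counting error alone. It was 3.043% (95% Wilson interval 2.762 to 3.352), 2.743% and 2.676% in control livers. In TAA livers it was 1.155% (0.9683 to 1.377), 1.289% and 1.291%. In recovery livers it was 2.482% (2.234 to 2.756), 2.8% and 2.418%. No interval of a TAA liver reached that of any control or recovery liver. The share of 29b-3p overlapped among all 3 groups, at 2.365 to 2.966% in control, 1.973 to 2.708% in TAA and 1.684 to 2.503% in recovery livers. These intervals cover counting error only.

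Ratios within each liver were compared by exact two-sided permutation tests, for which 3 against 3 cannot go below p = 0.1. Of the 24 tests (8 ratios in 3 comparisons), the lowest Benjamini-Hochberg adjusted p was 0.34, so none passed. The mean log2 ratio of 29c-3p to 29b-3p was 0.12 ± 0.0744 (SD, n = 3) in control, -0.83 ± 0.343 in TAA and 0.28 ± 0.245 in recovery livers. The TAA livers were below all others, with exact permutation p = 0.1 against either group. The ratio of 29b-3p to 29a-3p overlapped in every comparison, at -5.19 ± 0.18, -5.44 ± 0.257 and -5.49 ± 0.303.

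The clusters were also compared through their summed passenger arms, which avoid 29b-3p. The log2 ratio of the 5p rows of the 29b-2/29c cluster to those of the 29a/29b-1 cluster was 3.39 ± 0.586 in control, 2.73 ± 0.356 in TAA and 3.79 ± 0.166 in recovery livers. The TAA and control livers overlapped (exact permutation p = 0.2), and the recovery livers were all above the TAA livers (exact permutation p = 0.1, the smallest possible). The ratio of 29b-2-5p to 29b-1-5p overlapped in all 3 comparisons, at 1.81 ± 0.315, 2.08 ± 0.829 and 1.89 ± 0.456. The latter ratio rests on 5 to 16 counts of 29b-1-5p in each library.

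The balance of reads between the arms differed widely among the hairpins. The log2 ratio of the 3p to the 5p arm was 9.12 ± 0.769 in control, 8.59 ± 0.299 in TAA and 9.71 ± 0.42 in recovery livers for 29a. For 29b, with both 5p rows summed, it was 2.33 ± 0.613, 2.65 ± 0.5 and 2.27 ± 0.434. For 29c it was near equality, at 0.10 ± 0.47, -0.51 ± 0.205 and 0.06 ± 0.429. The 29c passenger arm was thus read about as often as its guide, whereas 29a passenger reads numbered 9 to 32 in a library beside at least 8703 of the guide. The 29c ratio of TAA livers overlapped that of control livers (exact permutation p = 0.2) and lay below that of recovery livers without overlap (exact permutation p = 0.1).

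**Figure D5:**
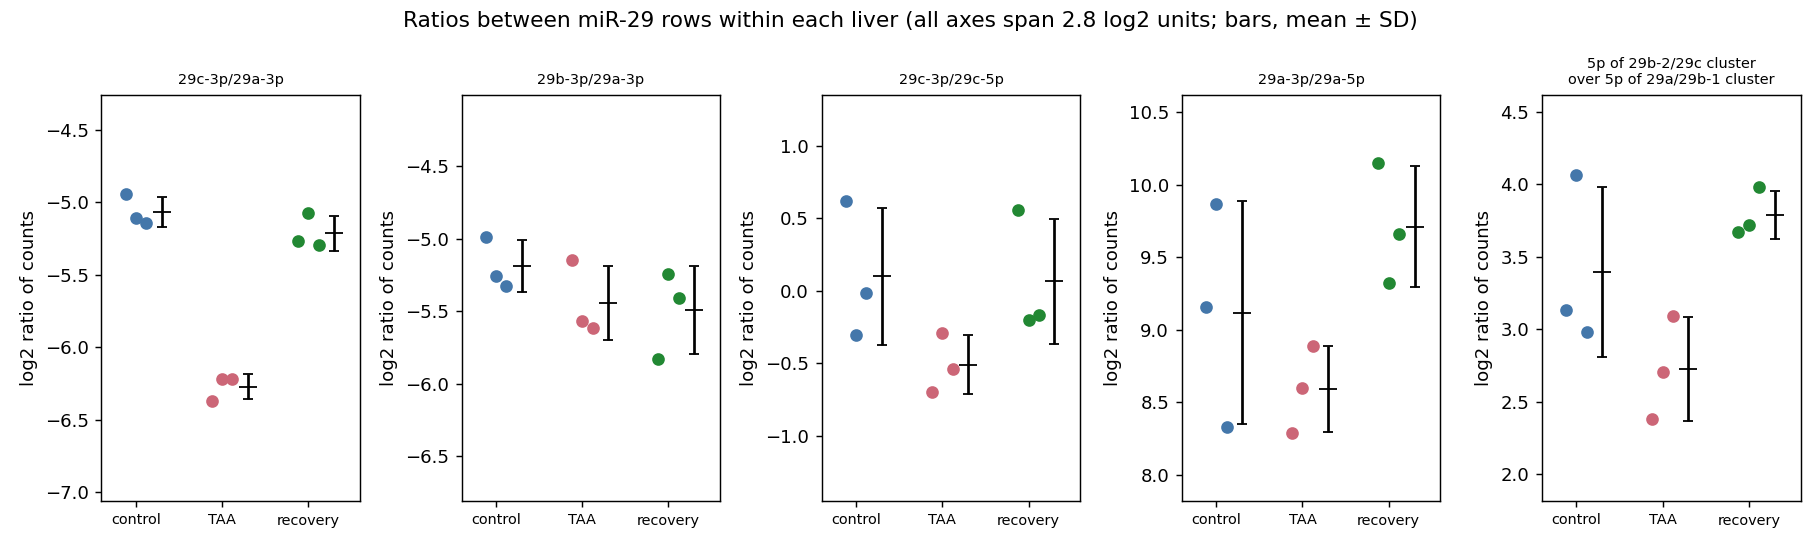
Log2 ratio of counts (y axes, each spanning the same range) between miR-29 rows within each liver, with 1 point for each mouse and the mean ± SD of 3 mice beside it. The ratio of 29c-3p to 29a-3p in the first panel was lower in the TAA livers (-6.27 ± 0.0868) than in control (-5.07 ± 0.106) and recovery livers (-5.22 ± 0.12), and that of 29b-3p to 29a-3p in the second overlapped among groups.

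The rows whose levels followed the guides most closely over the 9 livers were sought among 222 rows with at least 10 CPM on average. Pearson's r of log2(TMM-CPM + 1) is given as a description, since the 9 points share their libraries and TMM factors and fall into treatment groups. For 29c-3p the closest rows outside the family were miR-194-2-3p (r = 0.992), miR-122-3p (0.99), miR-194-5p (0.99), miR-26b-5p (0.985) and miR-30c-2-3p (0.98). For 29a-3p they were miR-378a-5p (0.987), miR-122-5p (0.981), miR-122b-3p (0.981), miR-455-3p (0.978) and miR-122-3p (0.974). Mean levels in control, TAA and recovery livers were 267000, 72700 and 238000 TMM-CPM for miR-122-5p. They were 267000, 72600 and 237000 for miR-122b-3p, so these rows may not be separate observations. Whether both counted the same reads was not tested. The median over the 222 rows was 0.0136 for 29c-3p and 0.0144 for 29a-3p. Within the family, r with 29c-3p was 0.982 for 29a-3p, 0.927 for 29b-3p, 0.912 for 29c-5p, 0.9 for 29b-1-5p, 0.853 for 29b-2-5p and 0.106 for 29a-5p. Rows of miR-122 and miR-194, both abundant in hepatocytes, were among those listed for the guides.

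Markers of the cells of the liver differed in direction between cell types. All 4 hepatocyte rows were called lower in TAA livers on the TMM scale, beside 16.7% of all rows tested. By library totals 0 were called, where 0.952% of all rows tested were called lower. Their median log2 fold change was -1.5 on the TMM scale, beside 0.113 for all rows. By library totals it was -0.378, beside 1.23 for all rows. On the TMM scale the value was -1.96 for miR-122-5p and -1.42 for miR-194-5p, beside -2.18 for 29c-3p and -0.98 for 29a-3p. Of 5 stellate and other mesenchymal rows 3 were called higher on the TMM scale (miR-199a-5p, miR-199a-3p and miR-214-3p) and 4 by library totals, beside 25.0% and 57.4% of all rows tested. The other mesenchymal rows, miR-143-3p (-0.022, FDR 0.94) and miR-145a-5p (-0.246, FDR 0.27), had negative log2 fold changes on the TMM scale and were not called there. The summed level of the 5 was 25480 to 31110 TMM-CPM in control and 18030 to 39510 in TAA livers. In deposited TPM that sum was 19240 to 24640 in control and 29450 to 64190 in TAA livers. All 3 biliary epithelial rows were called higher on both scales, with sums of 564.7 to 739.6 against 3249 to 5470 TMM-CPM. Leukocyte rows summed to 187.3 to 207.6 in control and 262 to 309.9 in TAA livers, with 1 of 4 called higher on the TMM scale and 4 of 4 by library totals. Red cell rows summed to 789.1 to 1339 and 206.4 to 461.5, with 1 of 3 called lower on the TMM scale and 0 by library totals. The 2 endothelial rows summed to 8478 to 8952 and 5700 to 6896, with 0 called on either scale. In deposited TPM the endothelial sum went the other way, at 6576 to 6715 in control and 8755 to 11200 in TAA livers. The red cell sum in deposited TPM was 582.7 to 1011 in control and 337 to 749.8 in TAA livers. The part of cell composition in the miR-29 values was not tested.

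After withdrawal the marker sums were 1203 to 1371 TMM-CPM for biliary, 141.4 to 217 for leukocyte, 21870 to 35800 for mesenchymal, 328.6 to 622.4 for red cell and 8348 to 9123 for endothelial rows. In deposited TPM the recovery livers had sums of 16760 to 31360 for mesenchymal and 6395 to 8094 for endothelial rows. Of the hepatocyte rows 3 of 4 were called higher than in TAA livers on the TMM scale and 0 by library totals, beside 10.2% and 0.909% of all rows tested. Their median log2 fold change was 1.16 on the TMM scale and 0.288 by library totals, beside -0.115 and -0.978 for all rows. All 3 biliary rows and 3 of 5 mesenchymal rows were called lower on both scales, beside 14.5% of all rows tested on the TMM scale and 46.1% by library totals. Of 4 leukocyte rows 1 was called lower on the TMM scale and 4 by library totals, and 0 red cell and 0 endothelial rows were called on either scale. Against control livers 11.3% of all rows tested were called in either direction on the TMM scale. On that scale 0 of 4 hepatocyte, 0 of 5 mesenchymal, 0 of 4 leukocyte and 0 of 2 endothelial rows were called. There 1 of 3 biliary rows was called higher and 1 of 3 red cell rows lower. By library totals, where 12.5% of all rows tested were called in either direction, 3 of 3 biliary rows were called higher and 0 rows of the other 5 marker lists were called.

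Other miRNAs of liver fibrosis gave a setting for the family. Of 13 rows regarded as antifibrotic or lowered in the field, 6 of 13 tested were called lower in TAA vs control on the TMM scale, beside 16.7% of all rows tested, and 0 were called higher. Among them were miR-30a-5p (log2 fold change -1.22) and miR-101a-3p (-1.52). Members with positive values were miR-150-5p (0.741, FDR 0.0070) and miR-133a-3p (5.58, FDR 0.062), neither of them called. By library totals 0 were called lower and 2 higher, beside 0.952% and 57.4% of all rows tested. The median log2 fold change of the list moved from -0.965 to 0.157, and that of all rows from 0.113 to 1.23. In recovery vs TAA 4 were called higher on the TMM scale, beside 10.2% of all rows tested, and 0 lower. By library totals 0 were called higher and 2 lower, beside 0.909% and 46.1% of all rows tested.

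Of 11 rows regarded as profibrotic or raised, 5 of 10 tested were called higher in TAA livers on the TMM scale and 8 by library totals, beside 25.0% and 57.4% of all rows tested. The list's median log2 fold change was 1.08 on the TMM scale and 2.19 by library totals, against 0.113 and 1.23 for all rows. The value was 2.66 for miR-34a-5p and 2.0 for miR-214-3p on the TMM scale, while miR-21a-5p (-0.358, FDR 0.036) and miR-27b-3p (-0.254, FDR 0.038) had negative values and were not called. In recovery vs TAA 4 were called lower on the TMM scale and 8 by library totals, beside 14.5% and 46.1% of all rows tested. In recovery vs control neither list had a call on either scale.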

How the data were processed

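Small RNA libraries were made by the authors from TRIzol-extracted total RNA of liver, and per the labels' processing notes reads were handled with Bowtie 1.3.0 and the mm10 genome. The treatment of reads that match several miRNAs, mismatches and strand was not given in the sources used here. The authors deposited 1 table of raw read counts per mature miRNA and TPM for each of 9 samples. The deposited TPM equalled the count as a share of the library total, with no correction for length, to within 5e-05. All columns of values were assigned to a sample (0 were not).

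Counts were tested pairwise with the edgeR 4.0.16 quasi-likelihood F test (R 4.3.3) with TMM factors, after filterByExpr with a minimum count of 10, and adjusted by Benjamini-Hochberg over all rows tested. A row was called at an FDR below 0.05 and a 2-fold change, the criterion of the study, for which edgeR replaced DESeq2. A further fit used the count of 29a-3p as the library size. Log2 ratios used a pseudocount of 0.5 counts, with exact permutation tests (scipy 1.17.1). The scripts were tested on simulated data. Alternatives used DESeq2 1.42.0, limma 3.58.1 on log2(TPM + 1), library totals, other filters, 1 fit of 9 samples, a replicate block and leaving out each library.

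All miR-29 rows were named. Like rows were the 5 with the highest r outside the family for 29a-3p and for 29c-3p, and other miRNAs were examples from the lists. Members and lists were chosen with earlier results of these data known. Each sample was a different mouse, so p-values measure the spread between mice. Intervals at 95% cover counting error only. Sequences were from RefSeq (GRCm38.p6) and gene annotation from GENCODE on GRCm38. Promoter sequences of the hairpins were not used here.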

Additional observations from a re-analysis of the deposited data

How the results depend on the processing

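Every alternative kept 0 members called in recovery vs control. In TAA vs control the 4 calls became 1 by library totals and 1 with limma on log2(TPM + 1), both scaled to the library total. They became 5 with DESeq2, 5 with DESeq2 size factors, 5 with no filter, 5 with 9 samples in 1 fit and 3 with a mean of at least 10 CPM, and 4 to 6 when each library was left out. In recovery vs TAA the 4 members called, all higher, became 2 by library totals (29c-3p higher, and 29a-5p lower, which was not among the 4), 3 with DESeq2, 3 with no filter, 1 with limma and 2 with a mean of at least 10 CPM, which leaves out the low passenger arms, and 2 to 5 when each library was left out. Relative to 29a-3p, calls in TAA vs control were 1 to 2 when each library was left out. In recovery vs TAA they were 1 to 2, and 1 with a mean of at least 10 CPM in place of 2. In TAA vs control 16.7% of all rows tested were called lower on the TMM scale and 0.952% by library totals. For the alternatives other than library totals the share of all rows called was not counted. Whether those changes in count concern the members or rows in general was not tested.

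The replicate numbers did not pair the samples: correlations of same-numbered deviations were -0.357 to 0.368, and 1 of 9 samples correlated best with its own number. With the replicate block 4 members were called in TAA vs control, 2 for recovery vs TAA and 0 for recovery vs control. Relative to 29a-3p the block left 1 call in place of 2 for recovery vs TAA.

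Directions changed as follows. In TAA vs control the log2 fold change became 0.15 for 29a-3p and 0.53 for 29a-5p by library totals, and 0.14 and 0.42 with limma. In recovery vs TAA that of 29b-3p became -0.030 by library totals and -0.036 with limma. In recovery vs control that of 29a-3p became 0.15 by library totals, 0.15 with limma, 0.047 with a mean of at least 10 CPM, 0.015 with 9 samples in 1 fit and 0.017 without miR-122-5p and miR-122b-3p, that of 29c-3p 0.0012 and 0.0015 by library totals and limma, and that of 29c-5p 0.060 and 0.036. Leaving out each library gave -0.12 to 0.039 for 29a-3p and -0.33 to 0.023 for 29c-5p in recovery vs control. Relative to 29a-3p it gave -0.18 to 0.12 for 29b-3p in recovery vs TAA and -0.31 to 0.14 for 29c-5p in recovery vs control. The log2 ratio of 29b-2-5p to 29b-1-5p ranged from -0.071 to 0.73 in TAA vs control. For recovery vs TAA the range was -0.65 to 0.15, and for recovery vs control -0.12 to 0.33. The ratio of 29b-3p to 29a-3p ranged from -0.18 to 0.12 in recovery vs TAA. With recovery against control livers, that of 29b-3p to the 29b 5p rows ranged from -0.28 to 0.29 and that of 29c-3p to 29c-5p from -0.28 to 0.22. Beyond the construction of each alternative, the cause was not tested.

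Chosen after seeing the data, the counts of 29a-3p and 29c-3p were summed because 1 base separates them. The sum had a log2 fold change of -1.005 (edgeR FDR 0.00055) in TAA vs control. Its value was 0.90 for recovery vs TAA and -0.027 for recovery vs control. The counts of 29a-5p and 29b-1-5p, at most 32 in a library, limit what can be said of the passenger arms of the 29a/29b-1 cluster.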
